A study of Mus musculus with 6 samples.

Results

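The genes described here encode 8 proteins of the striated muscle Z-disc, of the titin filament anchored there and of the stretch response: the ankyrin repeat genes Ankrd1, Ankrd2 and Ankrd23, the LIM domain gene Csrp3, the Xin repeat genes Xirp1 and Xirp2, and the small muscle genes Smpx and Mustn1. They were taken by symbol from a deposited table of 22187 genes. Each symbol stood on 1 row, no member shared its 6 values with another row, and all 8 were among the 12392 genes that passed the level filter. Whole left gastrocnemius, a calf muscle, was sequenced from 3 denervated and 3 control mice, 1 library per mouse. All were male C57BL/6J mice on standard chow, labelled as 12 weeks old. In the denervated mice 2 mm of the left sciatic nerve, which supplies this muscle, had been cut out 2 weeks before harvest. No operation is named for the normal control mice, so the operation and the loss of the nerve cannot be told apart.

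Levels are the deposited signal, which reads as TPM (transcript abundance corrected for gene length) times 1 factor per library, between 0.977 and 1.13. They can be set against each other between genes, and the depth behind them is unknown. Fold changes are given on the scale log2(level + 1), as denervated minus control, with a standard error (SE). Adjusted p-values are those of limma, corrected by the Benjamini-Hochberg method across the whole table of tested genes. A gene is called at an adjusted p below 0.05.

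Titin spans the sarcomere from the Z-disc to the M-band, and proteins bound along it are placed where passive tension is carried. Ankrd1, Ankrd2 and Ankrd23 form the muscle ankyrin repeat family, which binds the spring region of titin and can also enter the nucleus. Csrp3, or muscle LIM protein, sits at the Z-disc, and the Xin repeat proteins bind and cross-link actin filaments at sites of force transfer.

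In denervated muscle 5 of the 8 genes rose, 1 fell and 2 were not called. Ankrd1, Ankrd2, Ankrd23, Xirp1 and Smpx rose, Xirp2 fell, and Csrp3 and Mustn1 overlapped between the groups, with 1 control library among or above the denervated values. Across all genes tested, 22.9% were called higher and 24.3% lower, 47.3% in either direction. The denervated and control values lay apart for 6 of the 8 genes, higher for 5 and lower for 1. The same held for 57.5% of all genes tested, with 27.8% higher and 29.7% lower. The median log2 fold change of the 8 was 1.03, beside -0.01 for all genes tested. These are counts over a small list chosen by name, and nothing particular to it is read from them.

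**Figure D1:**
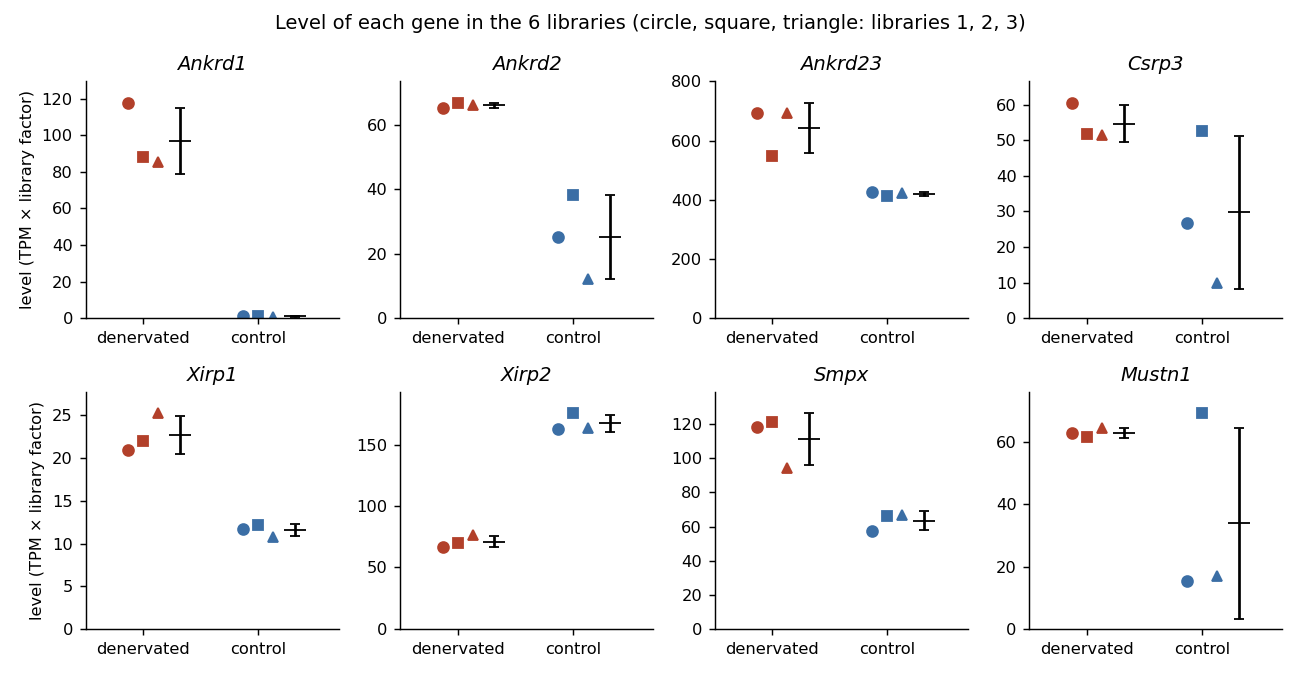
Level (TPM times library factor) of each of the 8 genes in the 3 denervated libraries (red, left) and the 3 control libraries (blue, right), with the mean and SD as a black bar. The groups lie apart for every gene except Csrp3 and Mustn1, where control 2 stands at 52.5 and 69.1.

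Ankrd1, known from stretched and injured muscle and from the heart, changed most of the 8. Its level was 118, 88.0 and 85.5 in denervated libraries 1 to 3, against 1.08, 1.32 and 0.812 in control libraries 1 to 3. Every denervated value was far above every control value, and the ratio of the group means was 90.6. The log2 fold change was 5.56 (SE 0.15, adjusted p = 4.05e-07), the rise ranked 8 among all genes tested. The pseudocount of 1 holds this value down, since the controls lie near 1, and with a pseudocount of 0.01 it was 6.50. In controls Ankrd1 was above 19.8% of the genes tested, and in denervated muscle above 97.4%.

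The bases upstream of the Ankrd1 start are shown because it is the member that changed most. They are RefSeq sequence on GRCm38.p6, the 250 bases before the annotated start at chr19:36119845-36120094 on the minus strand, with capitals for CATTCC read on either strand. CATTCC is the core of the M-CAT element, a motif bound by TEAD factors.

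Ankrd1: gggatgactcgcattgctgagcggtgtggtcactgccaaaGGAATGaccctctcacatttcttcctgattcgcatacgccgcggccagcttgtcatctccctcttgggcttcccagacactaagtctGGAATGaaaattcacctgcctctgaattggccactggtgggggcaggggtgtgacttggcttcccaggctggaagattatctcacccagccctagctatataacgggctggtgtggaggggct

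This window holds 2 matches, which begin 210 and 123 bases before the start and read GGAATG on the coding strand. Among 32851 windows of the same length in the RefSeq table, 12.6% hold at least 1 match and 1.02% hold 2 or more. The match is a description of the letters and no evidence of binding.

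Ankrd2, a family member richer in slow fibres and known to rise with stretch, was at 65.3, 66.8 and 66.3 in the denervated libraries and at 25.2, 38.2 and 12.0 in the controls. The denervated libraries were nearly equal, the controls spread by a factor of 3.17, and the groups did not overlap. The log2 fold change was 1.50 (SE 0.34, adjusted p = 0.00879), with 1.07 without control 3 and 1.86 without control 2.

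Ankrd23, the family member also described in relation to energy metabolism, was the most abundant of the 8 genes in both groups. It stood at 691, 546 and 694 in the denervated libraries and at 425, 412 and 421 in the controls. All denervated values were higher, with denervated 2 the lowest of them. The log2 fold change was 0.61 (SE 0.12, adjusted p = 0.00358). Of the 2 annotated starts of Ankrd23, the window printed here holds a CATTCC match that begins 120 bases before the start, and the other window holds none. The printed window lies at chr1:36535740-36535989 on the minus strand of GRCm38.p6, with the match in capitals. Ankrd23 is shown as the most abundant member, and this window because it holds the match. At least 1 match is held by 12.6% of all windows. The windows of Ankrd2, Csrp3, Smpx and Mustn1 hold none.

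Ankrd23: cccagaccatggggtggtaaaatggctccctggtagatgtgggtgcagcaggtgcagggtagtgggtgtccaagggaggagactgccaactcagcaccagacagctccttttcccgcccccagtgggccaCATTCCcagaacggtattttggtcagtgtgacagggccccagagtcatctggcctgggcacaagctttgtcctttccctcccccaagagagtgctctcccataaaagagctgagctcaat

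Within the ankyrin family the make-up of the transcripts shifted. The summed level of the 3 genes was 807 ± 92.7 in denervated and 446 ± 10.1 in control muscle (SD, n = 3 each). Ankrd1 made up 13.5%, 12.6% and 10.1% of that sum in the denervated libraries and 0.240%, 0.293% and 0.187% in the controls. Ankrd23 made up 79.7% ± 2.13 in denervated and 94.2% ± 2.89 in control muscle, and was the main family transcript in both. Ankrd2 had a share of 7.47% to 9.53% in denervated and 2.77% to 8.45% in control muscle, which overlapped. Such shares do not depend on how a library was scaled.

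The difference in response inside the family was tested on the log2 ratio of level + 1 within each library. Ankrd1 relative to Ankrd2 was 0.53 ± 0.27 in denervated and -3.53 ± 0.63 in control muscle, a difference of 4.06 (SE 0.39). Ankrd1 relative to Ankrd23 was -2.72 ± 0.25 in denervated and -7.67 ± 0.19 in control muscle, a difference of 4.95 (SE 0.18). Ankrd2 relative to Ankrd23 was -3.26 ± 0.21 in denervated and -4.15 ± 0.82 in control muscle, a difference of 0.89 (SE 0.49) that was 0.46 without control 3 and 1.27 without control 2. In all 3 pairs every denervated ratio was above every control ratio, for Ankrd2 to Ankrd23 by a narrow margin of -3.38 in denervated 1 against -3.40 in control 2. The exact permutation test, two-sided, gave p = 0.1 for each, which is the smallest that 3 against 3 libraries can give, and 0.1 after adjustment over the 4 family pairs compared. For Ankrd2 to Ankrd23 the exact permutation p was 0.2 without any 1 of the denervated libraries.

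**Figure D2:**
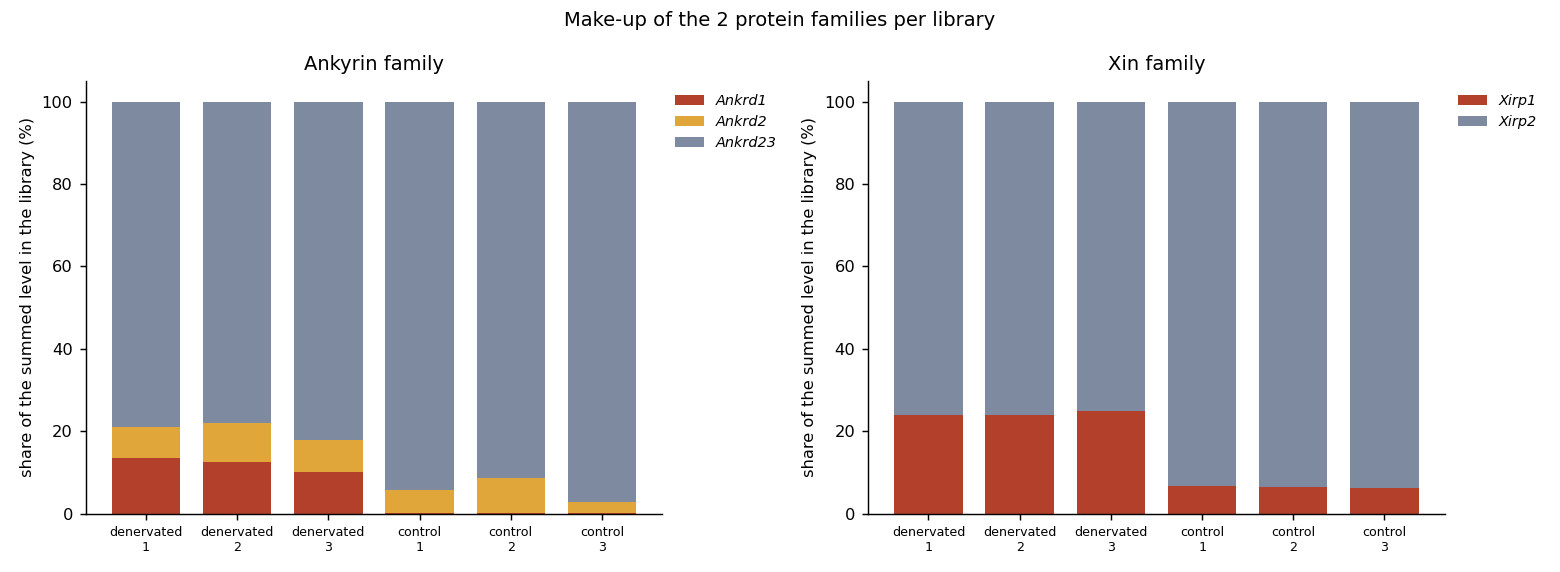
Share of each gene in the summed level of its protein family (%), per library, with denervated libraries left of controls. Ankrd1 takes 10.1% to 13.5% of the ankyrin family in denervated muscle and under 0.3% in controls, and Xirp1 takes 23.9% to 24.9% of the Xin family in denervated muscle and 6.20% to 6.68% in controls.

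The Xin repeat genes moved in opposite directions. Xirp1, or Xin, which marks damaged and regenerating fibres, was at 20.9, 22.0 and 25.2 in the denervated libraries and at 11.7, 12.2 and 10.8 in the controls. The groups did not overlap and each was tight. Its log2 fold change was 0.92 (SE 0.10, adjusted p = 0.000209). Xirp2, the larger Xin relative also known as myomaxin, was at 66.8, 70.2 and 76.0 in the denervated libraries and at 163, 175 and 163 in the controls. Every denervated value was lower, and Xirp2 was the only one of the 8 genes that fell, with a log2 fold change of -1.22 (SE 0.09, adjusted p = 2.65e-05). A non-coding gene, Gm13601, overlaps the span of Xirp2 in RefSeq. Its level was 0 to 0.293 in denervated and 0 to 0.384 in control libraries.

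The upstream window of Xirp2 is shown because it is the member that fell. It covers chr2:67445752-67446001 on the plus strand of GRCm38.p6 and holds 1 MEF2 box, in capitals, a motif bound by MEF2 factors in muscle.

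Xirp2: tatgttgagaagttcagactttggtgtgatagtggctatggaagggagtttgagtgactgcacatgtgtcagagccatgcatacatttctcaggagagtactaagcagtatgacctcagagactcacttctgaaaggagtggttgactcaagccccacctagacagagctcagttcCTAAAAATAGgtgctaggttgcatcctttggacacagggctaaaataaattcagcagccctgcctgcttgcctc

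The box begins 74 bases before the start, and 2.92% of the 32851 windows hold at least 1. This window holds no CATTCC match. RefSeq windows were matched for 7 of the 8 genes, 9 windows in all, and no other window held a MEF2 box. Xirp1 is the gene without a window, so its upstream bases were not searched for any motif. No window held a CArG box, the motif of serum response factor, which 1.47% of all windows hold. The E-box CANNTG, bound by myogenic factors, was in the windows of Ankrd1, Ankrd2, Csrp3 and Xirp2 and in 1 of the 2 windows of Ankrd23, and 66.2% of all windows hold it. All motifs were searched on both strands, and no CATTCC match or MEF2 box overlapped another motif.

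Xirp1 made up 23.9%, 23.9% and 24.9% of the Xin family sum in the denervated libraries and 6.68%, 6.49% and 6.20% in the controls. The sum itself was lower, at 93.7 ± 6.92 in denervated and 179 ± 7.74 in control muscle. The log2 ratio of Xirp1 to Xirp2 was -1.60 ± 0.04 in denervated and -3.75 ± 0.05 in control muscle. This difference of 2.14 (SE 0.04, exact permutation p = 0.1, two-sided) was the tightest of the 4 family pairs, with no overlap between the libraries.

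Smpx, a small protein of costameres and the Z-disc region encoded on the X chromosome, rose. Its level was 118, 122 and 94.0 in the denervated libraries and 57.3, 66.1 and 67.0 in the controls. The groups lay apart, with denervated 3 the lowest of its group. The log2 fold change was 0.80 (SE 0.12, adjusted p = 0.00131), and Smpx was next to Ankrd23 in level among the denervated libraries.

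Csrp3, which is richer in slow than in fast fibres and acts as a cofactor of myogenic factors, was at 60.5, 51.7 and 51.4 in the denervated libraries and at 26.9, 52.5 and 9.75 in the controls. Control 2 lay among the denervated values, and control 3 was the lowest. The log2 fold change of 1.14 (SE 0.50, adjusted p = 0.0956) did not pass the threshold. Without control 2 it was 1.68 (adjusted p = 0.00933), and without control 3 it was 0.52 (adjusted p = 0.153).

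Mustn1, a small nuclear protein of muscle and tendon that takes part in myoblast fusion, was at 62.9, 61.4 and 64.5 in the denervated libraries and at 15.4, 69.1 and 16.9 in the controls. Here control 2 was above all denervated libraries, while the other controls were well below. The log2 fold change of 1.22 (SE 0.50, adjusted p = 0.0778) did not pass the threshold, and without control 2 it was 1.90 (adjusted p = 3.17e-05). Removing control 1 gave 0.85 and removing control 3 gave 0.91 (adjusted p = 0.209 each). Without control 2, 7 of the 8 genes were called higher, against 20.4% of all genes tested in that fit, and 1 lower, against 21.8%.

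The spread of the controls thus differed between the 8 genes. The highest control was 3.17 times the lowest for Ankrd2, 5.39 times for Csrp3 and 4.49 times for Mustn1. It was 1.03 to 1.17 times the lowest for Ankrd23, Xirp1, Xirp2 and Smpx, and 1.63 times for Ankrd1. Among 2748 tested genes with a control mean of 10 or more, 1.78% spread over the controls at least as widely as Ankrd2, 1.46% as Csrp3 and 1.64% as Mustn1. Control 2 was the highest control for all 3 of these genes, and also for Ankrd1, Xirp1 and Xirp2. For Ankrd2 and Csrp3 the spread did not come from control 2 alone. On the scale log2(level + 1), Ankrd2 lay 0.72 above its control mean in control 2 and at -0.87 from it in control 3, and Csrp3 lay 1.09 above in control 2 and at -1.23 in control 3. Mustn1 lay 1.36 above in control 2, with controls 1 and 3 at -0.74 and -0.61. Its levels in controls 1 and 3 were close to each other, at 15.4 and 16.9, so its spread came from control 2. The denervated libraries held the same 3 genes within 1.02 to 1.18 times of each other.

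Other genes also differed between the controls. Cd68, a macrophage marker, was at 7.22, 6.52 and 7.13 in the denervated libraries and at 1.01, 4.70 and 1.65 in the controls, with control 2 the highest control. Its profile is also 1 of the 2 nearest to that of Mustn1, a search that favours genes with a high control 2. The summed level of the 5 macrophage markers was 30.7 to 33.8 in denervated libraries and 13.6, 16.0 and 16.1 in controls 1 to 3, and the other 4 of these markers were not highest in control 2. Myl2, a slow-fibre marker outside the rule for named genes, was at 1.55, 3.57 and 1.21 in the denervated libraries. It was at 2.34, 0.494 and 4.12 in the controls, with control 2 the lowest. The summed level of the slow-fibre markers was 28.1, 18.0 and 27.5 in controls 1 to 3. Of these markers Atp2a2 was highest in control 2 among the controls, and Tpm3 and Myh7b were not lowest there. Fhl1, a LIM domain gene chosen after its values were seen, was at 625, 574 and 660 in the denervated libraries and at 414, 841 and 400 in the controls, so that control 2 was the highest of all libraries. Its log2 fold change was 0.25 (adjusted p = 0.472), and 0.60 without control 2 (adjusted p = 0.00656). What sets the controls apart for these genes was not tested.

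**Figure D3:**
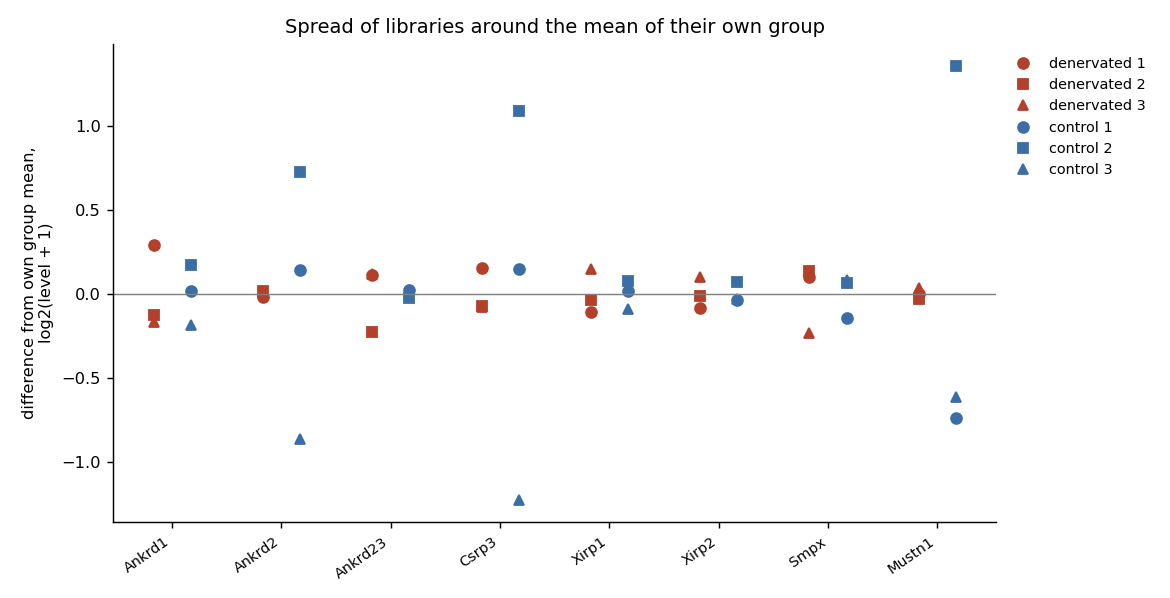
Difference of each library from the mean of its own group on the scale log2(level + 1), for the 8 genes, with red for denervated and blue for control libraries. Control 2 lies at 0.72, 1.09 and 1.36 for Ankrd2, Csrp3 and Mustn1, and control 3 at -0.87, -1.23 and -0.61.

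In denervated muscle the order of levels was Ankrd23, Smpx, Ankrd1, Xirp2, Ankrd2, Mustn1, Csrp3 and Xirp1. The ranges of Smpx and Ankrd1 overlapped, as did those of Xirp2 and Ankrd2. The other neighbours did not overlap, though Ankrd2 and Mustn1 lay only 3.21 apart in their mean level. In controls the order was Ankrd23, Xirp2, Smpx, Mustn1, Csrp3, Ankrd2, Xirp1 and Ankrd1. From Smpx to Xirp1 each gene overlapped the next, so that order is not resolved, whereas Ankrd23, Xirp2 and Ankrd1 stood apart from their neighbours. Xirp2 thus stood next to Ankrd23 in controls and after Smpx and Ankrd1 in denervated muscle. Its share of the summed level of all 8 genes was 6.32% ± 0.68 in denervated and 22.3% ± 1.03 in control muscle. That of Ankrd1 was 8.58% ± 1.20 in denervated and 0.142% ± 0.023 in control muscle.

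Profiles were compared by the root mean square distance over the 6 libraries between values of log2(level + 1) less the control mean, among 9676 protein-coding genes with a mean level of 1 or more. Nearest to Ankrd1 were Gadd45a, a stress-response gene (distance 0.17), and Chrnd, a subunit of the acetylcholine receptor (0.24). Cfl1, the actin-severing protein cofilin, and Arl2bp were nearest to Xirp1 (0.051 and 0.056). For Xirp2 they were Ptpn3, a tyrosine phosphatase, and Cox10, an assembly factor of cytochrome oxidase (0.053 and 0.063). Fkbp8 and Alg9 were nearest to Ankrd23 (0.035 and 0.040), and Wdr46 and Gm10123 to Smpx (0.060 and 0.072). For Ankrd2 they were B4galt5 and Fam171a2 (0.17 and 0.30), for Csrp3 E2f3 and B4galt5 (both 0.44), and for Mustn1 E2f3 and the macrophage gene Cd68 (0.24 and 0.27). E2f3, a cell cycle transcription factor, was at 6.68, 5.13 and 6.96 in the denervated libraries and at 1.38, 5.88 and 1.51 in the controls. Its high control 2 follows from its selection, since Csrp3 and Mustn1 are themselves highest among controls in control 2.

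How the libraries are scaled bears on all of these values. Protein-coding genes held 17.5% to 19.0% of the summed level in denervated and 30.8% to 32.7% in control libraries, and transcripts of the mitochondrial genome held 2.64% to 3.25% in denervated and 11.3% to 12.6% in control libraries. Of the called genes 48.5% were higher with values as deposited. That share was 75.5% with totals that leave out the 20 most abundant genes, 82.6% with equal protein-coding totals without the mitochondrial genome, and 93.1% with equal protein-coding totals. The median of all genes moved to 0.23, 0.32 and 0.61 in the same order. Under each of these 3 scalings 7 of the 8 genes were called higher and Xirp2 lower, against 40.1%, 48.5% and 72.9% of all genes tested called higher and 13%, 10.3% and 5.39% called lower. Csrp3 and Mustn1 passed the threshold in all 3 (adjusted p = 0.0064 to 0.0344 for Csrp3 and 0.00547 to 0.0297 for Mustn1). With equal protein-coding totals Ankrd1 had a log2 fold change of 6.25 and Xirp2 of -0.34 (adjusted p = 0.00891). Taken less the median of all genes, these stood at 5.64 and -0.95, and the other 6 genes at 0.89 to 1.76. No member changed direction under any scaling run.

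**Figure D4:**
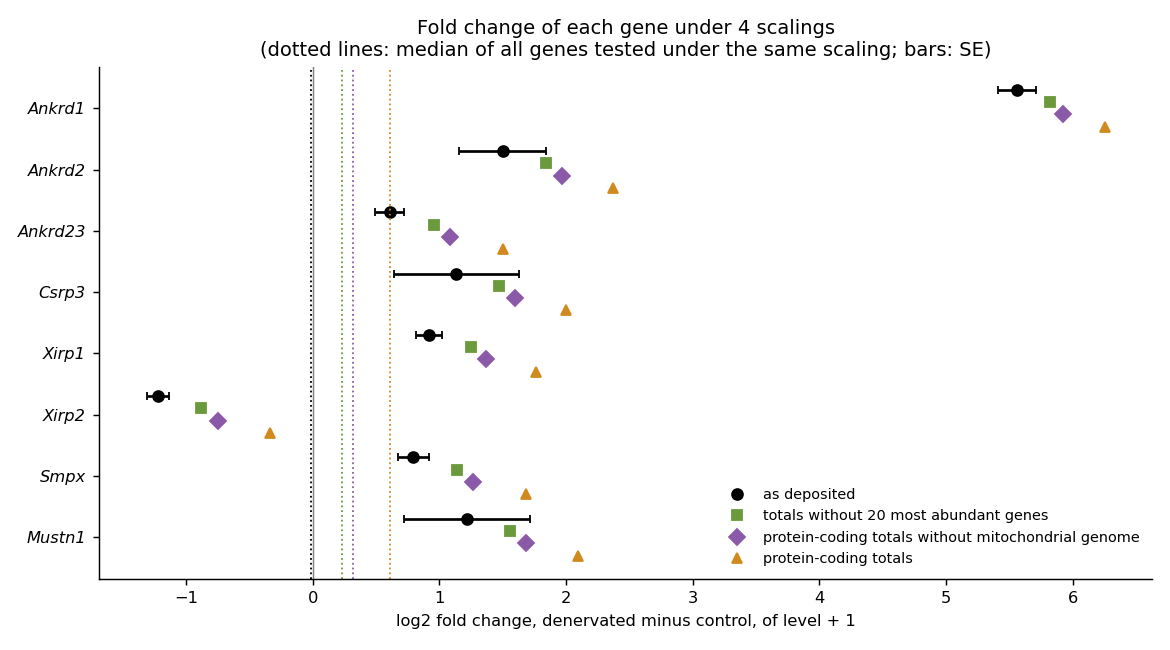
Log2 fold change of level + 1, denervated minus control, for each of the 8 genes under 4 scalings, with the SE for values as deposited and a dotted line at the median of all genes under each scaling. The medians lie at -0.01, 0.23, 0.32 and 0.61, and of the 8 genes only Xirp2 lies below 0, in all 4 scalings.

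Genes that encode partners of these proteins mostly fell, with values as deposited. Of 23 genes of titin, filamin and Z-disc partners 21 were tested, of which 3 rose, 13 fell and 5 were not called, with a median log2 fold change of -0.52. Beside this and the following lists, 22.9% of all genes tested were called higher and 24.3% lower. Flnc, the filamin that Xin proteins bind, rose to 92.2 ± 11.1 in denervated muscle, against 47.9 ± 3.79 in controls (log2 fold change 0.93, SE 0.11, adjusted p = 0.000419). Des, the intermediate filament desmin, rose to 704 ± 66.4 in denervated muscle, against 460 ± 26.2 in controls. Mypn, myopalladin, which binds Ankrd1, had a log2 fold change of 0.26 (adjusted p = 0.0336), a call lost without denervated 2 or 3 or any 1 control (adjusted p = 0.0573 to 0.092). Myoz1, a Z-disc partner of calcineurin, fell to 122 ± 19.5 in denervated muscle, against 628 ± 36.3 in controls (log2 fold change -2.37). Synpo2, an actin-bundling protein, fell to 15.4 ± 2.41 in denervated muscle, against 59.1 ± 4.77 in controls. Capn3, the titin-bound protease, fell to 6.92 ± 0.08 in denervated muscle, against 27.3 ± 1.64 in controls. Ttn itself, named here as the common partner after its values were seen, was at 1024 ± 13.8 in denervated and 1962 ± 63.2 in control muscle (log2 fold change -0.94, adjusted p = 0.00011). The call of Ttn was lost with equal protein-coding totals (-0.04, adjusted p = 0.675). Under that scaling the median of the list was 0.32, with 11 genes higher and 7 lower. The median of all genes was then 0.61, with 72.9% of them called higher and 5.39% lower.

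LIM domain relatives of Csrp3 went both ways, 3 higher and 3 lower of 8 tested, with a median log2 fold change of 0.02. Fhl2, a LIM protein of heart that binds titin, rose to 3.35 ± 0.21 in denervated muscle, against 0.219 ± 0.117 in controls (log2 fold change 1.84, SE 0.10, adjusted p = 8.6e-06). Csrp1, the relative of smooth muscle, rose to 23.0 ± 4.08 in denervated muscle, against 12.4 ± 1.53 in controls, and Crip2 to 17.6 ± 2.53 in denervated muscle, against 10.7 ± 1.14 in controls. Fhl3 fell to 16.0 ± 2.90 in denervated muscle, against 78.5 ± 5.88 in controls (log2 fold change -2.24). Crip1 and Csrp2 had log2 fold changes of -0.71 and -0.50 (adjusted p = 0.0225 and 0.0208). Both calls were lost without denervated 2, denervated 3 or control 2 (adjusted p = 0.0566 to 0.0765), which left 1 lower gene in this list. Crip1 turned to 0.11 with equal protein-coding totals.

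Targets and factors of the YAP and TAZ pathway, to which Ankrd1 itself belongs, were 5 higher, 2 lower and 6 not called of 13 tested (15 listed), with a median log2 fold change of 0.10. Tead4, a TEAD factor, rose to 5.11 ± 0.86 in denervated muscle, against 0.721 ± 0.049 in controls (log2 fold change 1.82, SE 0.12, adjusted p = 1.71e-05). The matricellular gene Ccn1, listed as Cyr61, rose to 64.9 ± 7.07 in denervated muscle, against 26.0 ± 3.60 in controls. Wwtr1, which encodes TAZ, rose to 10.3 ± 0.54 in denervated muscle, against 4.65 ± 0.18 in controls. Crim1 fell to 2.25 ± 0.09 in denervated muscle, against 6.41 ± 0.52 in controls. Axl had a log2 fold change of -0.41 (adjusted p = 0.0181), a call lost without denervated 2 (adjusted p = 0.051) or control 3 (adjusted p = 0.0625). With equal protein-coding totals Axl was at 0.39 and called higher (adjusted p = 0.0112). Without denervated 3, or without any 1 of the controls, 3 genes of this list were called higher.

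Genes of serum response factor and its cofactors were 3 higher, 9 lower and 1 not called of 13 tested, with a median log2 fold change of -0.58. Junb, an immediate early gene, rose to 18.5 ± 1.92 in denervated muscle, against 2.50 ± 1.12 in controls (log2 fold change 2.52, SE 0.21, adjusted p = 5.68e-05). Egr1 and Mrtfb, listed as Mkl2, had log2 fold changes of 0.92 and 0.33 (adjusted p = 0.0496 and 0.0344). Neither call withstood the loss of denervated 2, denervated 3, control 1 or control 3 (adjusted p = 0.0591 to 0.147), and that of Egr1 was also lost without denervated 1 (adjusted p = 0.0675). Junb was then the 1 higher gene of this list in 4 of the 6 fits that leave out a library. Abra, a striated muscle protein that binds actin, fell to 15.6 ± 1.27 in denervated muscle, against 47.8 ± 4.48 in controls. Actc1, the cardiac actin, fell to 0.768 ± 0.158 in denervated muscle, against 7.79 ± 1.81 in controls. Acta2, the smooth muscle actin, fell to 5.08 ± 0.31 in denervated muscle, against 16.3 ± 0.27 in controls. With equal protein-coding totals the median of this list was 0.14, with 4 genes higher and 3 lower, beside a median of 0.61 for all genes, of which 72.9% were called higher and 5.39% lower.

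**Figure D5:**
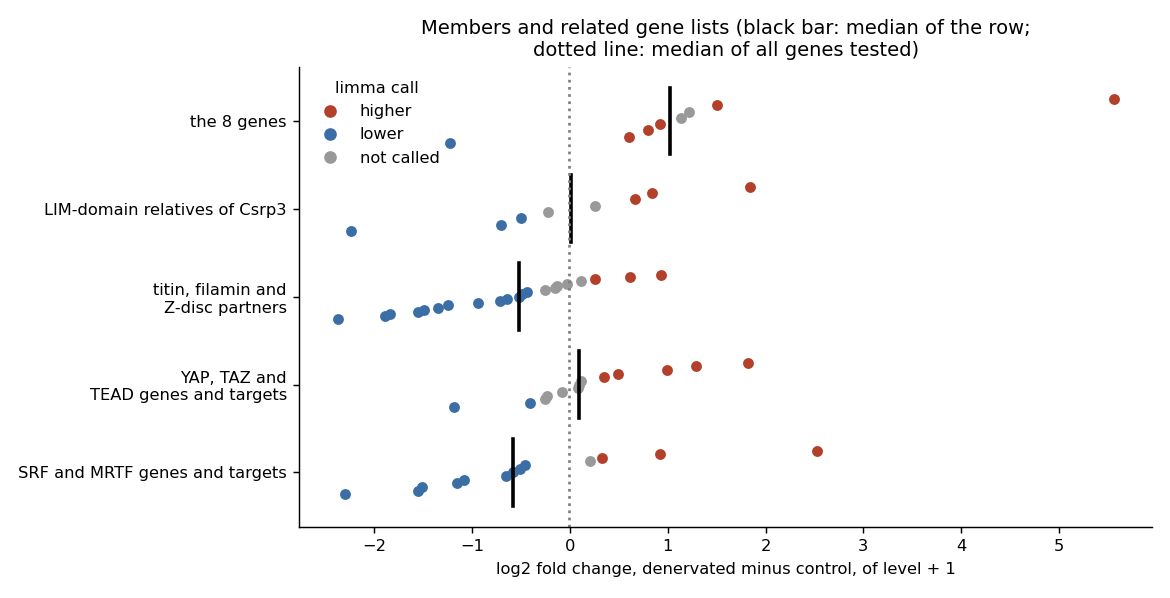
Log2 fold change of level + 1, denervated minus control, for the 8 genes and the tested members of 4 related lists, coloured by call, with the median of each row as a black bar and that of all genes as a dotted line. The medians are 1.03 for the 8 genes and 0.02, -0.52, 0.10 and -0.58 for the lists from top to bottom.

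Markers of fibres and other cells moved with the comparison. In bulk muscle fewer cells of a type and less RNA per cell cannot be told apart. The 10 skeletal fibre markers, which identify the tissue, summed to 13812 to 16025 in denervated and 36171 to 41160 in control libraries, 9 of them lower, with Myh4, the fastest myosin, at 638 ± 73.1 in denervated and 4485 ± 503 in control muscle. Slow-fibre markers summed to 80.0 to 99.8 in denervated and 18.0 to 28.1 in control libraries, with 4 of 9 higher and 5 not called. The largest of those rises was that of the slow troponin Tnnt1, to 40.2 ± 6.47 in denervated muscle, against 1.02 ± 0.41 in controls, while Myl2 had a log2 fold change of 0.004 (adjusted p = 0.995). Satellite cell and myoblast markers had all 5 tested of 6 higher, with sums of 215 to 220 in denervated and 13.3 to 17.6 in control libraries. Myog was the largest part of the denervated sums, at 109 ± 9.45 in denervated and 2.48 ± 0.49 in control muscle. Pax7, the marker not tested, overlapped between the groups. It was at 0.371, 0.556 and 0.449 in the denervated libraries and at 0.415, 0.312 and 0.350 in the controls. Of 8 smooth muscle and pericyte markers 7 were tested and all were lower, with sums of 47.8 to 51.4 in denervated and 127 to 138 in control libraries. Tendon and myotendinous junction markers had 1 higher and 3 lower of 6 tested, with sums of 50.2 to 57.3 in denervated and 64.7 to 86.3 in control libraries. The median log2 fold change of this list was -0.37, and 0.26 with equal protein-coding totals. Scx, a tendon transcription factor and the 1 that rose, was at 9.11 ± 2.14 in denervated muscle, against 0.561 ± 0.214 in controls. Tnmd, Fmod and Thbs4 were the 3 lower with values as deposited. Tnmd fell to 2.40 ± 0.38 in denervated muscle, against 7.18 ± 1.36 in controls. Fmod fell to 22.4 ± 2.40, against 37.3 ± 6.92 in controls, and Thbs4 to 15.3 ± 0.92, against 22.4 ± 3.18 in controls. Of 4 macrophage markers tested 3 were higher, with sums of 30.7 to 33.8 in denervated and 13.6 to 16.1 in control libraries. For Schwann cells 1 of 2 tested was lower, with sums of 1.60 to 1.81 in denervated and 7.83 to 11.8 in control libraries. Heart markers matched 5 of 6 rows, of which 2 were tested and Tnnt2, also a gene of immature skeletal muscle, was higher. Myl7, a defining atrial gene, was listed at 0 in all 3 controls and in denervated 3, with 0.391 and 0.031 in denervated 1 and 2. Tnnt2 was at 4.39 ± 0.82 in denervated and 0.348 ± 0.170 in control muscle. The part of these cell types in the values of the 8 genes was not tested.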

How the data were processed

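Per the labels' protocols, Qiazol was used to extract total RNA, which was sequenced in paired reads of 50 bp after an Illumina mRNA library protocol. The authors deposited 1 expression signal per gene and mouse. The submitters' processing notes name the build NCBIM37 and, with no role or order, the tools edgeR 3.12.1, RSEM 1.3.0 and Bowtie2 2.2.9. The sources used here do not say whether counting used strand. No header names a unit: in each column 100% of the values above 0 and below 100 lay within 0.00055 of a whole multiple of 0.01 times a library factor, so the signal was read as TPM times that factor. TPM keeps no record of reads, so depth is unknown.

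A gene was tested where 3 or more of the 6 libraries reached 0.5, with limma 3.58.1 in R 4.3.3 on log2(level + 1), with an intensity trend and 4 residual degrees of freedom. The test planned for counts was not needed. The procedure was tested on simulated data. The members and lists were chosen with earlier results of these data known. Named genes were the 8 members, up to 3 genes per direction and list with called and non-overlapping values, and the 2 nearest profiles per member. Some of the marker genes this rule takes are not described, and Myl2, Fhl1, Ttn and some other genes are named outside it. Symbols on several rows (Nrap, Tead1, Tnnc1) were resolved by GENCODE M21 identifiers. Replicates are separate mice by their labels, and the labels name no batch. Alternatives were other scalings, filters, pseudocounts, variance settings, a replicate block and leaving out libraries.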

Additional observations from a re-analysis of the deposited data

How the results depend on the processing

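The 6 called members kept their direction and their call under every alternative run except a test against a minimum log2 fold change of 1, where 1 member (Ankrd1) was higher and 0 lower, with 311 genes higher and 296 lower in the whole table. The counts of genes higher and lower were 2840 and 3017 as deposited, 4966 and 1614 with totals without the 20 most abundant genes, 6013 and 1271 with equal protein-coding totals without the mitochondrial genome, and 9036 and 668 with equal protein-coding totals. Leaving out 1 library at a time gave 2390 to 2556 higher and 2456 to 2742 lower genes, 5 to 7 higher members and 1 lower member. Smaller pseudocounts of 0.1 and 0.01 moved the differences in log2 ratio to 4.84 and 4.95 for Ankrd1 to Ankrd2, to 5.77 and 5.89 for Ankrd1 to Ankrd23 and to 2.2 and 2.21 for Xirp1 to Xirp2, because less is added to low levels. With equal protein-coding totals Crip1, Axl and the tendon markers Fmod and Thbs4 turned positive (0.11, 0.39, 0.17 and 0.34). Under that scaling Axl and Thbs4 were called higher (adjusted p = 0.0112 and 0.0203), and Crip1 and Fmod were not called (adjusted p = 0.633 and 0.295). Axl was also positive with those totals without the mitochondrial genome, and not called (0.016, adjusted p = 0.901). For libraries that share a replicate number, correlations over genes of the deviations from the group mean were -0.0068, -0.099 and 0.019. For unlike numbers they ran from -0.126 to 0.120. As deviations within a group of 3 sum to 0, these values cannot settle whether the shared numbers pair the samples. A fit with the replicate block gave 2636 higher and 2772 lower genes and the same 5 higher and 1 lower members. Of the genes named here, Mypn lost its call in it (adjusted p = 0.0694). The limits are 3 mice per group, an unknown depth and a signal whose unit was read from its values.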
